A study of Mus musculus with 384 samples.

Results

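Ebf1, Pax5, Foxo1 and Spib, 4 transcription factor genes of the B lymphoid lineage, were followed in single common lymphoid progenitors (CLPs), bone marrow cells with B, T, natural killer and dendritic potential. They are 4 of the 96 assays of the panel, taken by gene name alone, and the assay spelled FOX01 in the deposited file was read as Foxo1. The cells came from wild-type C57/Bl6 mice and were sorted on a Lin- B220- Flt3+ Il7r+ gate with low staining for Kit and Sca1. The 384 wells lay on 4 plates, P0 to P3, each with 90 wells of 1 cell, 4 wells without reverse transcriptase (no-RT), 1 well of 10 cells and 1 well of 20 cells. Each value is a Ct, the PCR cycle at which a TaqMan product crossed the detection threshold after pre-amplification in the well. Wells with a Ct below 28 counted as having a product, and 28 minus Ct gave the level, on which 1 unit is 1 cycle and a higher value means more cDNA.

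Ebf1 is the factor that opens and activates the early B cell program in lymphoid progenitors, and Foxo1, a forkhead factor downstream of PI3 kinase signalling, is known to act with it in feed-forward fashion. Pax5 acts after them: it fixes B lineage identity and shuts off genes of other lineages. Spib encodes Spi-B, an Ets factor close to PU.1 (Spi1) that is best known from mature B cells and plasmacytoid dendritic cells.

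Quality control left out 13 of 360 single-cell wells and kept 86 on P0 and 87 on each other plate, with a product for 22 to 54 assays each. The plate was the replicate (n = 4). Nothing in the labels ties the plates to separate mice, so p-values measure the spread between these plates, which may be technical. Kit, the 1 gene of the sorting gate with a matched assay, had a product in 97.4% ± 1.1 of cells, and of 7 T and natural killer markers Cd2, Cd3e and Tbx21 had one in 0 cells, Cd8a in 2, Cd5 in 34, Cd4 in 38 and Klrb1c in 46. H2-D1, a class I histocompatibility gene, was also at 0 in every cell, so an assay at 0 need not show absence.

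The 4 factors differed widely in how many cells held them. The FOX01 product was present in 82.4% ± 4.4 of kept cells (mean and SD of 4 plates, as for all shares here), that of Ebf1 in 73.8% ± 6.0, that of Pax5 in 25.9% ± 2.0 (90 cells) and that of Spib in 2.02% ± 1.1 (7 cells). By plate from P0 to P3, the FOX01 share was 81.4, 88.5, 78.2 and 81.6% (70, 77, 68 and 71 cells). The Ebf1 share was 79.1, 73.6, 65.5 and 77.0% (68, 64, 57 and 67 cells). Pax5, with the smallest SD in percentage points of the 3 common factors, was at 25.6, 25.3, 24.1 and 28.7%, and Spib had 2, 1, 1 and 3 cells. Among all 96 assays ordered by share, FOX01 was 27th, Ebf1 32nd, Pax5 52nd and Spib 81st. None of the 4 gave a product in the 16 no-RT wells, where 0 of 16 allows a share of up to 20.6% (exact 95% interval, counting error only), a limit that lies above the Spib share.

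FOX01 and Ebf1 were each more frequent than Pax5, and Pax5 more frequent than Spib, on every plate. Ebf1 exceeded Pax5 by 47.9 percentage points (41.4 to 53.5 by plate) and FOX01 exceeded Pax5 by 56.5 (52.9 to 63.2). Pax5 exceeded Spib by 23.9 points (23.0 to 25.3). In exact two-sided permutation tests of 4 against 4 plate shares, 5 of the 6 pairs of factors had an adjusted p = 0.0343 (Benjamini-Hochberg over 6 pairs), from p = 0.0286, the smallest these plates can give. The remaining pair was FOX01 against Ebf1: FOX01 was higher on 4 of 4 plates, by 2.33 to 14.9 points (mean 8.63 ± 6.1), with an adjusted p = 0.0571 (exact permutation), so their order was not established. With the plate as a block, where the smallest exact p is 0.125, or with 3 plates, where it is 0.1, none of the 6 pairs can pass. All cells were taken from 1 gate, so these shares order the factors by how common they were; time was not measured.

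**Figure D1:**
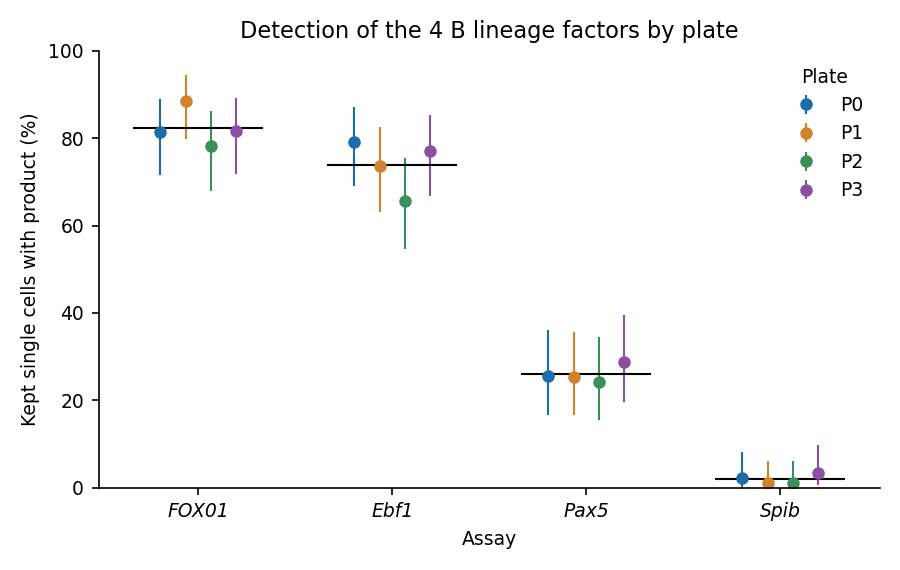
Share of kept single cells with a product (percent, vertical axis) for each factor (horizontal axis), with 1 point per plate, exact 95% binomial intervals that cover counting error only, and the mean of the 4 plates as a black line. FOX01 (78.2 to 88.5%) and Ebf1 (65.5 to 79.1%) overlapped between plates, and all Pax5 points lay between 24.1 and 28.7%, clear of both and of Spib.

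Where a product was found, it was found well inside the threshold. The latest Ct counted as a product was 24.97 for Ebf1, 24.7 for FOX01, 22.5 for Pax5 and 24.5 for Spib, and 1 Ebf1 value at a Ct of 28.2 was the only one of the 4 assays between 28 and 40. Among Ebf1-positive cells the lowest, median and highest levels were 3.86, 14.30 and 17.73 on P0, 3.03, 14.32 and 17.18 on P1, 9.22, 14.08 and 17.37 on P2, and 8.08, 14.23 and 17.39 on P3. The plates thus had almost the same median (14.23 ± 0.11, SD, n = 4), while cells of 1 plate varied with an SD of 2.32 cycles on average. Median FOX01 levels were 13.54 on P0 and 12.50, 12.35 and 12.58 on P1 to P3 (mean 12.74 ± 0.54), with an SD of 1.71 cycles between cells. Median Pax5 levels were 13.26, 12.65, 12.11 and 11.24 (mean 12.32 ± 0.86), with an SD of 1.96 between cells. P0 was highest for both FOX01 and Pax5, and the levels of different assays cannot be set against each other because their efficiencies are not known.

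The regions before the transcription starts of the 3 common factors are given here because these genes were found in the same cells, as described next. The windows are the 250 bases before each RefSeq start (build GRCm38.p6), written 5′ to 3′ on the gene's strand, with matches to 4 cores in capitals: CCCNNGGG, the core bound by EBF factors, TGTTTAC for FOXO, CAGGTG for E2A and GAGGAA for PU.1 and Spi-B, each searched on both strands. Foxo1 lies at chr3:52268087-52268336 (plus strand), Pax5 at chr4:44710695-44710944 (minus strand) and the more upstream of 2 Ebf1 starts at chr11:44617850-44618099 (plus strand).
Foxo1: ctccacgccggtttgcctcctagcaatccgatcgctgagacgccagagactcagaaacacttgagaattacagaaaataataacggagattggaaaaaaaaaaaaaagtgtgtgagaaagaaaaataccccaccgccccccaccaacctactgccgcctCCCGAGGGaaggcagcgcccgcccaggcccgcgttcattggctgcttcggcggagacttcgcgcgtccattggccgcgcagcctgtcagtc
Pax5: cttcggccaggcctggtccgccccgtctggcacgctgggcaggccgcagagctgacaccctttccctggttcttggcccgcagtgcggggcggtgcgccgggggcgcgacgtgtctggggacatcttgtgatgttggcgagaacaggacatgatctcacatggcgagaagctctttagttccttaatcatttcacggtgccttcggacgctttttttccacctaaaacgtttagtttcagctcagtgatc
Ebf1: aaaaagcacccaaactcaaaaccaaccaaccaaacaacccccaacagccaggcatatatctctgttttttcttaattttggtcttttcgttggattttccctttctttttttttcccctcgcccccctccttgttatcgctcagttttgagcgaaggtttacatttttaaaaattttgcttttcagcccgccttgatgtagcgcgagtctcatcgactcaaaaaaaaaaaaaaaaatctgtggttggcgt
The Foxo1 window holds 1 match to the EBF core, CCCGAGGG, starting 91 bases before the start. The Pax5 window and the printed Ebf1 window hold no match to any of the 4 cores. Of the windows not printed, that of Spib (chr7:44532072-44532321, minus strand) holds 2 overlapping EBF core matches, starting 65 and 64 bases before the start. The window of the other Ebf1 start (chr11:44619978-44620227, plus strand) holds 1 PU.1 and Spi-B core, starting 130 bases before it. Among all 32851 RefSeq windows of this length, 11.8% hold the EBF core, 3.17% the FOXO core, 17.2% the E2A core and 23.3% the PU.1 and Spi-B core. Such matches are descriptions of the letters in these windows, and binding was not measured.

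Pax5 was found almost entirely within the cells that held both Ebf1 and FOX01. Of 90 Pax5-positive cells, 89 had both, 1 had neither (on P3), and none had Ebf1 without FOX01 or FOX01 without Ebf1. The 89 cells with all 3 factors numbered 22, 22, 21 and 24 by plate, where the product of the shares on each plate would give 54.9 in sum. Cells with Ebf1 and FOX01 but no Pax5 were the largest class, with 38, 38, 28 and 37 by plate (40.6% ± 5.7 of cells; 156.3 cells in all from the product of shares). FOX01 alone was found in 56 cells (55.5) and Ebf1 alone in 26 (33.1). Cells with none of the 3 numbered 34 (8, 6, 11 and 9), above the 12.1 that the product of shares gives. The classes without Pax5 were thus not nested: both Ebf1 without FOX01 and FOX01 without Ebf1 occurred on every plate.

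**Figure D2:**
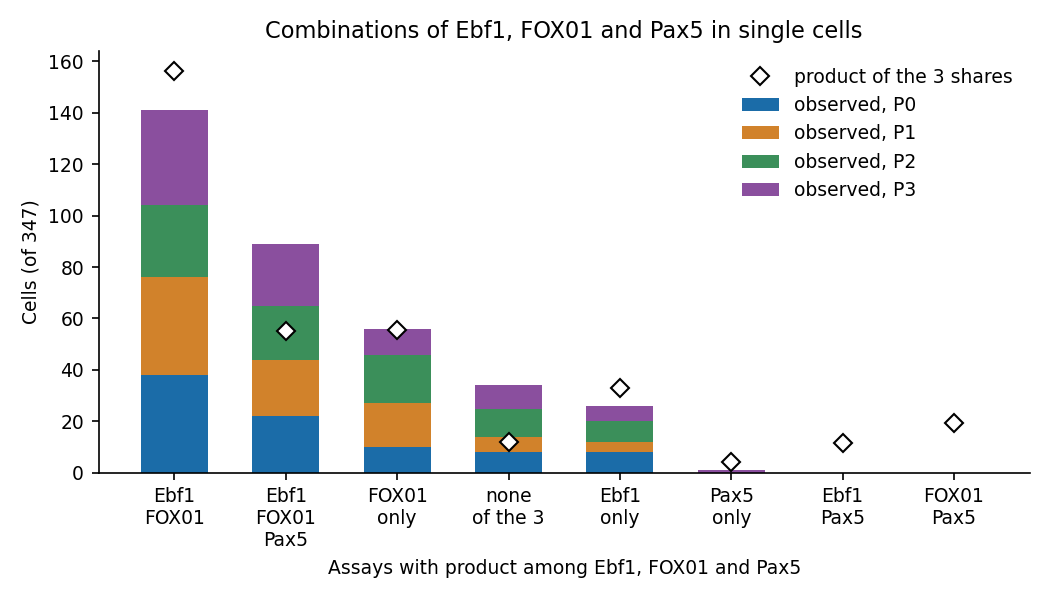
Number of kept cells (vertical axis) with each combination of Ebf1, FOX01 and Pax5 products (horizontal axis), stacked by plate, and the number from the product of the 3 shares on each plate as diamonds. The class with all 3 factors (89 against 54.9) and the class with none (34 against 12.1) stand above the diamonds, and the 2 classes of Pax5 with only 1 of the other factors are empty.

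Each of the 3 pairs among Ebf1, FOX01 and Pax5 was detected together more often than their shares alone would give. Co-detection on each plate was expressed as a log2 odds ratio, and the 4 plate values were tested against 0 by limma across the 1176 pairs of 49 genes found in 5% to 95% of cells. For Ebf1 with Pax5 it was 4.16, 4.64, 5.17 and 2.87 on P0 to P3 (mean 4.21 ± 0.98, SD, n = 4, limma adjusted p = 0.00116). FOX01 with Pax5 stood at 3.94, 3.09, 4.14 and 2.41 (3.40 ± 0.80, limma adjusted p = 0.00243), and Ebf1 with FOX01 at 2.53, 2.32, 1.78 and 3.24 (2.47 ± 0.60, limma adjusted p = 0.00946). Put as shares, Ebf1 was in 80.4% ± 6.7 of cells with FOX01 and in 42.4% ± 5.4 of those without, and the plate ranges (72.1 to 85.9% and 37.5 to 50.0%) did not overlap. FOX01 was in 89.7% ± 3.4 of Ebf1-positive cells and in 60.7% ± 10.4 of Ebf1-negative ones. Over all pairs tested, 2.98% were called positive and 1.62% negative at an adjusted p under 0.05. The values with Pax5 rest on 1 cell outside the overlap, so their size depends on the 0.5 added to each count: with 1 added they were 3.38 for Ebf1 and 2.61 for FOX01, still called. Without P1 or P3 the Ebf1 and FOX01 pair kept its size (2.52 and 2.21) and lost its call (limma adjusted p = 0.0643 and 0.113); both pairs with Pax5 were called whichever plate was left out.

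The same pairs were then taken within subsets of cells that all had, or all lacked, the third factor. The level of Ebf1 was not held fixed, and both FOX01 and Pax5 were most frequent in the Ebf1-positive cells with the highest Ebf1 level. FOX01 with Pax5 was therefore not tested apart from the Ebf1 level. Among Ebf1-positive cells, FOX01 with Pax5 had log2 odds ratios of 3.31, 2.40, 3.68 and 3.09 (3.12 ± 0.54, limma adjusted p = 0.0199), in a test of 1081 pairs of which 0.37% were called positive and 0.0925% negative. Of the 26 Ebf1-positive cells without FOX01, 0 had Pax5, so the size and the spread of these values depend on the 0.5 added; with 1 added the mean was 2.24, still called. Without P0, P1 or P3 this pair stood at 3.05, 3.36 and 3.13 and was not called (limma adjusted p = 0.0711, 0.144 and 0.0757). Among Pax5-negative cells, Ebf1 with FOX01 was 1.87, 1.67, 0.98 and 2.38 (1.73 ± 0.58). That pair was positive on 4 of 4 plates and did not pass the test (limma adjusted p = 0.104), in which 0.17% of 1176 pairs were called positive and 0.085% negative. It did pass with 1 added to each count, with cells stratified by the number of other products, and with all wells kept. These were 3 of 8 alternative settings, and it passed in 0 of 4 runs with a plate left out. Each of the 3 settings also called a much larger share of all pairs, given under the dependence on processing. The 13 wells added back when all were kept held none of the 4 factors, which in itself raises the odds ratio.

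Ebf1 and FOX01 levels were higher in cells that also held Pax5. On P0 to P3, the mean Ebf1 level was 16.13, 15.22, 15.48 and 15.01 in cells with Pax5 and 13.15, 12.83, 12.99 and 13.11 in Ebf1-positive cells without it. The plate means did not overlap, and the difference was 2.44 cycles ± 0.44 (SD, n = 4, limma adjusted p = 0.00539). Between 83.3% and 90.9% of Pax5-positive cells lay above the median Ebf1 level of the Pax5-negative cells of their plate. For FOX01 the means were 14.74, 13.76, 13.53 and 13.61 with Pax5 and 12.68, 12.05, 12.04 and 11.96 without, again with no overlap, a difference of 1.73 ± 0.24 (limma adjusted p = 0.00712). Over the 1785 ordered pairs of a level and a presence that had enough cells, 1.01% were called positive and 0.392% negative. Leaving out P1 or P2 ended the Ebf1 call (2.46 and 2.42, limma adjusted p = 0.0699 and 0.0911), and leaving out P1, P2 or P3 the FOX01 call (1.74, 1.81 and 1.76, limma adjusted p from 0.0605 to 0.0911).

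**Figure D3:**
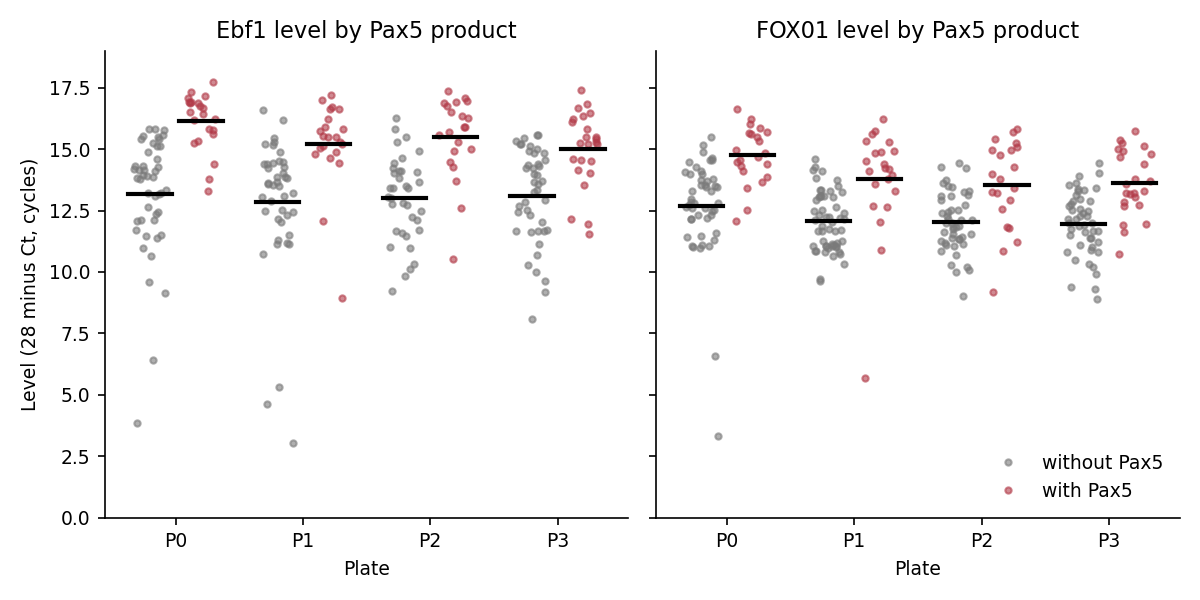
Level (28 minus Ct, in cycles, vertical axis) of Ebf1 (left) and FOX01 (right) in each cell with that product, by plate (horizontal axis), in grey for cells without Pax5 and red for cells with it; black lines are plate means. Single cells overlapped widely, and the means of cells with Pax5 lay 1.90 to 2.98 cycles higher for Ebf1 and 1.50 to 2.07 cycles higher for FOX01.

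Between Ebf1 and FOX01 themselves the differences had the same direction and did not pass the test. Ebf1 was 2.80, 0.53, 0.93 and 2.20 cycles higher in cells with FOX01 (mean 1.62 ± 1.1, limma adjusted p = 0.0967), with only 4 to 8 FOX01-negative cells on a plate; centred on the reference genes of the cell it was 1.07. FOX01 was 1.97, 1.14, 1.01 and 0.83 cycles higher in cells with Ebf1 (1.24 ± 0.50, limma adjusted p = 0.0508). The Pax5 level could not be compared by presence of Ebf1 or FOX01, since 1 Pax5 cell lacked them, and no level could be compared by Spib. By class, the mean Ebf1 level was 12.42 ± 0.82 in the 26 cells with Ebf1 alone, 13.14 ± 0.31 in those with Ebf1 and FOX01, and 15.46 ± 0.49 in the 89 with all 3 (SD, n = 4). The first of these steps was not the same on all plates: it went up on P0 (11.65 to 13.47) and P3 (11.78 to 13.32) and down on P1 (13.15 to 12.80) and P2 (13.10 to 12.96). The FOX01 level was 11.72 ± 0.08 with FOX01 alone, 12.35 ± 0.41 with Ebf1 added and 13.91 ± 0.56 with all 3. The step to the class with Pax5 was the larger one for both genes.

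The share of cells with Pax5 followed the level of Ebf1 in a stepped way. When the Ebf1-positive cells of each plate were put in 4 equal groups by Ebf1 level, Pax5 was in 10.9% ± 7.6 of the lowest group, 9.14% ± 7.5 of the second, 37.8% ± 6.8 of the third and 82.5% ± 5.8 of the highest. By plate the highest group had 88.2, 81.2, 85.7 and 75.0%, above every other group on every plate. All 63 cells of the highest group had FOX01. For FOX01 level the Pax5 shares were 11.1% ± 5.0, 9.81% ± 3.0, 35.3% ± 8.8 and 69.9% ± 3.8. The lower 2 groups did not differ beyond their spread for either gene. Low Ebf1 did not preclude Pax5: 7 of 65 cells in the lowest group had it.

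**Figure D4:**
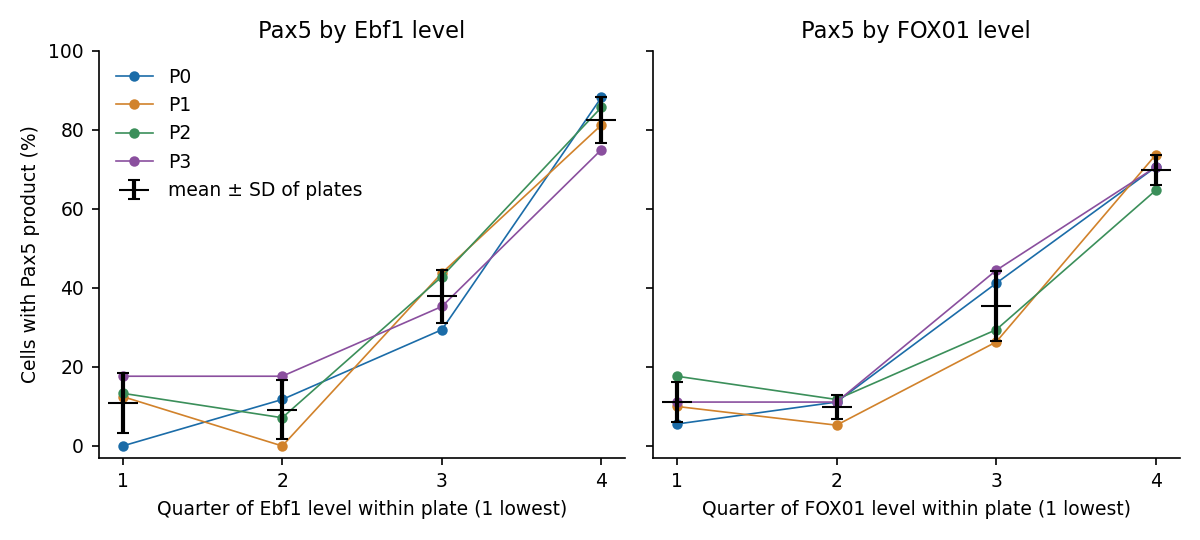
Share of cells with Pax5 (percent, vertical axis) in 4 equal groups of Ebf1-positive (left) or FOX01-positive (right) cells ordered by that gene's level within each plate (horizontal axis, 1 lowest); coloured lines are plates and black marks are the mean ± SD of 4 plates. The share is near 10% in both lower groups (10.9 and 9.14% for Ebf1) and rises to 82.5% for Ebf1 and 69.9% for FOX01 in the highest.

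In cells that held both of 2 factors, their levels moved together. Over cells of 1 plate, Spearman's rho was 0.56 to 0.66 for Ebf1 with FOX01 (49 to 61 cells a plate), 0.59 to 0.89 for Ebf1 with Pax5 and 0.30 to 0.66 for FOX01 with Pax5 (21 to 24 cells a plate). With the mean level of the reference genes of the same cells, rho was -0.0046 to 0.33 for Ebf1, -0.08 to 0.27 for FOX01 and 0.11 to 0.74 for Pax5. These are descriptions across cells, which share the reaction of their well.

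The mean reference level, taken as the yield of the well, differed by plate. It was lower in FOX01-negative cells on P0 and P3, in Pax5-positive cells on P1 and P2, and in Ebf1-positive cells on P0 to P2. Cells with Pax5 had a median of 39.5 ± 0.58 other products and a mean reference level of 15.07 ± 0.35, and cells without it 41.0 ± 0.82 and 15.23 ± 0.19 (mean ± SD of plates). Cells with Ebf1 had 40.2 ± 0.50 other products and a reference level of 15.12 ± 0.11, against 41.1 ± 1.0 and 15.41 ± 0.30 without. On P0 to P3 the reference level was 15.52, 14.70, 14.92 and 15.14 with Pax5 and 15.29, 15.39, 15.29 and 14.96 without. With Ebf1 it was 15.27, 15.06, 15.14 and 15.02, and without Ebf1 15.64, 15.65, 15.33 and 15.01. By plate, the reference level of cells without FOX01 was 14.70, 15.53, 15.26 and 14.66, against 15.50, 15.17, 15.19 and 15.10 with it, and on P3 they had 37.5 other products against 41. The 26 cells with Ebf1 alone had the lowest reference level of any class, 14.64 ± 0.78 (13.58 on P0), beside 15.25 ± 0.20 with Ebf1 and FOX01 and 15.45 ± 0.10 with FOX01 alone; its part in their Ebf1 level was not tested beyond the centring on reference genes. Cells with none of the 3 factors had a reference level of 15.38 ± 0.59, beside 15.07 ± 0.35 in cells with all 3. It was higher in cells with none on P0 to P2 and lower on P3 (14.66 against 15.14). Centred on the reference genes of the cell, the Ebf1 level difference by Pax5 was 2.60 cycles and that of FOX01 was 1.97, both called.

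The partners of Ebf1 with the highest log2 odds ratio over 4 plates were Pax5, Ly6d and Gfra2. Those of Pax5 were Ebf1, Gfra2 and Ly6d, and those of FOX01 were Pax5, Ebf1 and Gfra2. The order by shared cells was another one for FOX01, with 230 cells that also had Ebf1 and 89 that also had Pax5. Ly6d, a surface protein that marks B-biased lymphoid progenitors, was in 84.4% ± 2.6 of Ebf1-positive and 29.6% ± 17.1 of Ebf1-negative cells (log2 odds ratio 3.71 ± 1.1, limma adjusted p = 0.00243). Gfra2, a GDNF family receptor, was in 67.8% ± 3.8 of Pax5-positive and 10.1% ± 2.9 of Pax5-negative cells (4.12 ± 0.36, limma adjusted p = 6.97e-04). Bst1, an ectoenzyme that makes cyclic ADP-ribose, was in 39.3% ± 9.1 of cells with Pax5 and 7.79% ± 4.6 of those without (3.00 ± 1.4, limma adjusted p = 0.0103). Ebf1 had 6 positive and 3 negative calls among its 48 partners (12.5% and 6.25%, against 2.98% and 1.62% of all pairs), Pax5 had 8 and 4 (16.7% and 8.33%) and FOX01 had 4 and 1 (8.33% and 2.08%). FOX01 thus had the fewest calls, and 1 of them was with Ccr7, a chemokine receptor of lymphoid cells, which was in 75.4% ± 6.5 of cells with FOX01 and 43.5% ± 6.6 of those without (1.97 ± 0.54, limma adjusted p = 0.0246). Klf4, a zinc finger factor of myeloid cells, went with Ebf1 (2.04 ± 1.04) and Pax5 (1.90 ± 0.98). Klrb1c, a natural killer cell receptor, and Ly86, an accessory protein of the receptor RP105, went with Pax5 (2.60 ± 1.1 and 1.82 ± 0.87).

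Both Ebf1 and Pax5 were called as found apart from Csf3r and a few other genes, and FOX01 from 1 gene, Itgb7. Csf3r, the G-CSF receptor, was in 36.9% ± 3.3 of Ebf1-positive and 83.2% ± 7.4 of Ebf1-negative cells (log2 odds ratio -3.01 ± 0.78, limma adjusted p = 0.00382), and in 16.7% ± 9.4 of cells with Pax5 and 59.9% ± 4.7 of those without (-2.88 ± 0.97, limma adjusted p = 0.00816). Csf1r, the M-CSF receptor, was apart from Ebf1 (-2.13 ± 0.57). Itgb7, an integrin chain of gut-homing cells, was apart from Ebf1 (-2.42 ± 0.56), Pax5 (-2.36 ± 0.78) and FOX01 (-1.77 ± 0.52). Itgb7 was in 0 of 90 Pax5-positive cells and in 26 cells without Pax5. The size and the spread of its value with Pax5 therefore depend on the 0.5 added to each count. Il2rb, an interleukin receptor chain of natural killer and T cells, was apart from Pax5 (-2.14 ± 1.07). Cd34, a surface protein of stem and progenitor cells, was in 85.6% ± 7.8 of Pax5-positive and 97.6% ± 2.1 of Pax5-negative cells (-2.76 ± 2.02, limma adjusted p = 0.0380), while its values with Ebf1 (0.20) and FOX01 (0.48) were positive and not called. With all wells kept this pair was at -1.16 and not called. Among Ebf1-positive cells it stood at -3.47 ± 1.4 (limma adjusted p = 0.0199), which fell short without P1 (-3.16) or P3 (-3.89) and could not be fitted without P0. Gfra2 with Pax5 held its size there (3.81 ± 0.33, limma adjusted p = 0.00523; 3.65 and not called without P1), and among Pax5-negative cells Ebf1 went with Ly6d (3.04 ± 1.1, limma adjusted p = 0.0324; 2.90 and not called without P3).

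**Figure D5:**
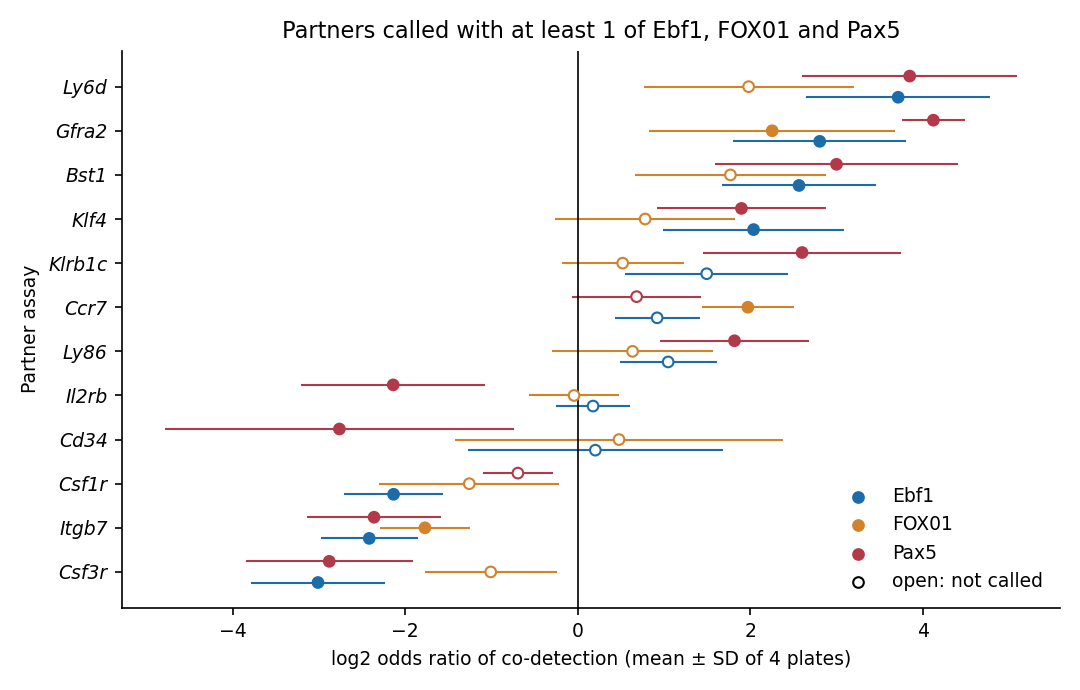
Log2 odds ratio of co-detection (horizontal axis, mean ± SD of 4 plates) of Ebf1, FOX01 and Pax5 with the 12 other genes called with at least 1 of them (vertical axis); filled points passed the test (limma, adjusted p under 0.05) and open points did not. Points right of 0 are genes found with the factor, such as Gfra2 with Pax5 at 4.12, and points left of 0 genes found apart from it, such as Csf3r with Ebf1 at -3.01.

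With 3 plates instead of 4, the direction held and nearly all of these partner calls were lost without at least 1 of the plates. The exceptions were Ebf1 with Ly6d and Pax5 with Gfra2, called whichever plate was left out. Pax5 with Ly6d (3.65) and with Bst1 (2.78) lost their call without P1. Calls were lost without P1 or P3 for Ebf1 with Gfra2 (2.92 and 3.08), with Bst1 (2.86 and 2.26), with Csf3r (-2.74 and -2.99) and with Itgb7 (-2.46 and -2.15), and for Pax5 with Csf3r (-2.51 and -3.02). They were lost without P0, P1 or P3 for Klf4 with Ebf1 (1.61 to 2.23) and with Pax5 (1.62 to 1.96), for Pax5 with Cd34 (-1.90 to -3.21), Itgb7 (-2.11 to -2.70) and Il2rb (-1.66 to -2.23), and for FOX01 with Gfra2 (1.66 to 2.51). Klrb1c with Pax5 lost its call without P0, P1 or P2 (2.22 to 2.53). Ly86 with Pax5 (1.57 to 2.20), Csf1r with Ebf1 (-1.97 to -2.41), and Ccr7 (1.82 to 2.13) and Itgb7 (-1.61 to -2.02) with FOX01 lost theirs without any 1 plate. In these lost cases the limma adjusted p ran from 0.0512 to 0.241.

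The list of B lineage genes held 4 of the 6 positive calls of Ebf1, 4 of the 8 of Pax5 and 2 of the 4 of FOX01, and the factors are themselves on that list. Of its 11 other panel members, 6 could be tested: 4 were called with Ebf1 (Pax5, Ly6d, Bst1 and FOX01), 4 with Pax5 and 2 with FOX01, none negative, with median log2 odds ratios of 2.52, 3.20 and 1.88 beside medians over all partners of -0.15, -0.10 and 0.24. Each list median includes the other factors, and the list was written with earlier results of these data known. The medians therefore describe the list and do not test it. Most regulators known to act before or beside Ebf1 could not be tested for co-detection, because Ikzf1 and Spi1, like Bcl11a and Mef2c, were in nearly all cells. Their levels could be tested by presence of Ebf1 and none was called. The differences were -0.12 cycles for Ikzf1, -0.04 for Spi1, -0.25 for Bcl11a and -0.56 for Mef2c (limma adjusted p = 0.792, 0.944, 0.488 and 0.228). Ikzf1 was in 100% of Ebf1-positive cells and 98.8% ± 2.5 of the others, and Spi1, which encodes PU.1, in 98.8% ± 1.4 and 98.6% ± 2.8. The 2 that could be tested for co-detection, Gfi1 and TCF3E2A (the E2A assay), had 0 calls with any of the 3 factors. TCF3E2A was in 34.9% ± 5.6 of Ebf1-positive and 38.8% ± 6.5 of Ebf1-negative cells. Among factors known to oppose the B lineage or drive other lineages, 4 of 9 passed the filters for co-detection and Klf4 alone was called, as a positive partner. The others were not tested. Of these, Cebpa and Nfil3 passed the filter on the share of cells and failed that on no-RT wells. Their shares may thus include products that arise without reverse transcription. Cebpa was in 14.2% ± 5.7 of cells with Pax5 and 42.7% ± 6.0 of those without. By Ebf1, its shares were 30.1% ± 4.1 with and 50.4% ± 4.7 without. Nfil3 was in 67.5% ± 10.1 with Pax5 and 84.4% ± 6.1 without. Notch1 was in nearly all cells, Gata1 in 2 and Tbx21 in 0. Of 3 myeloid genes tested, 2 were called negative with Ebf1, 1 with Pax5 and 0 with FOX01. Of 4 T lymphoid genes tested none was called in either direction with any of the 3. Of 5 natural killer and innate lymphoid genes, Pax5 had 1 positive (Klrb1c) and 2 negative calls (Il2rb and Itgb7), and Ebf1 and FOX01 had 1 negative call each (Itgb7).

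Markers of other cell types differed with the factors. Of the myeloid and dendritic markers, 4 of 8 were on the panel (Csf3r, Csf1r, Itgax and Cd68), and their summed level per cell ranged over plates from 4.20 to 10.41 in Pax5-positive and from 14.96 to 18.03 in Pax5-negative cells. The corresponding ranges were 10.09 to 13.38 with Ebf1 and 18.22 to 22.89 without. Cd68 had a product in 11 of 16 no-RT wells. For the T and natural killer markers, 7 of 8 on the panel with Cd2, Cd3e and Tbx21 at 0, the ranges overlapped (2.10 to 6.67 with Pax5, 1.75 to 4.81 without). Klrb1c, in 33.0% ± 16.9 of Pax5-positive cells and 6.60% ± 1.9 of the others, was the one member called with Pax5. Cd4 lay the other way, in 4.27% ± 3.3 of Pax5-positive and 13.2% ± 5.0 of Pax5-negative cells, and was not called (log2 odds ratio -1.35 ± 1.4, negative on 4 of 4 plates, limma adjusted p = 0.222). With Ebf1 it was also negative on 4 of 4 plates and not called (-1.35 ± 0.41, limma adjusted p = 0.111). Cd72, a surface protein of B cells and one of the committed B cell markers, was in 96.7% ± 4.3 of cells with Pax5 and 89.5% ± 1.5 of those without. The part of these markers in the results was not tested.

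Levels of the factors also differed by the presence of the partner genes. Ebf1 was 2.42 cycles ± 0.20 higher in cells with Gfra2, 2.38 ± 0.61 with Ly6d, 2.02 ± 0.53 with Bst1 and 1.72 ± 0.45 with Klrb1c, and 1.33 ± 0.43 lower with Csf3r (limma adjusted p = 0.00269, 0.00712, 0.00731, 0.0102 and 0.0326). FOX01 was 1.63 ± 0.24 higher with Bst1 and 1.61 ± 0.20 with Gfra2 (limma adjusted p = 0.00712 each). Pax5 was 1.95 ± 0.58 higher with Bst1, at 13.33 ± 0.16 against 11.38 ± 0.51 (limma adjusted p = 0.0102), and this was not called with levels centred on the reference genes (1.54, limma adjusted p = 0.0807). Taken the other way round, Cd34 was 2.62 ± 0.78 lower in cells with Pax5 and 1.57 ± 0.22 lower in cells with Ebf1 (limma adjusted p = 0.00712 each), and Ly6d was 1.49 ± 0.29 higher in cells with Pax5 (limma adjusted p = 0.0102). Without the plate as a block, 12 pairs were called in place of 25, and the Cd34 difference by Ebf1 and the Ly6d difference by Pax5 were not (limma adjusted p = 0.120 each). All 11 of these differences had the same sign on 4 of 4 plates. Each lost its call without P1 and without P2, the values lying from 1.56 to 2.54 for Ebf1 and its positive partners, -1.12 to -1.43 for Ebf1 by Csf3r, 1.53 to 1.69 for FOX01, 1.76 to 2.18 for Pax5, -1.47 to -2.47 for Cd34 and 1.40 to 1.62 for Ly6d where the call was lost. Leaving out P3 also ended the call for Ebf1 by Csf3r, both FOX01 values, Pax5 by Bst1, Cd34 by Ebf1 and Ly6d by Pax5, and leaving out P0 that for Ebf1 by Klrb1c, Ebf1 by Csf3r and Ly6d by Pax5.

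Spib was found in few cells, so the shares of the other factors among them rest on small counts. By the plate shares alone, 5.28 Spib cells would hold Ebf1, 5.74 FOX01 and 1.87 Pax5. All 7 had Ebf1, FOX01 and Ly6d, 6 had Gfra2 and 5 had Pax5; among the other 340 cells 73.2% had Ebf1, 82.1% FOX01, 69.7% Ly6d, 23.8% Gfra2 and 25.0% Pax5. With 7 cells the exact 95% interval for 7 of 7 reaches down to 59.0% and that for 5 of 7 runs from 29.0 to 96.3%, so no test of co-detection was made. The 2 Spib cells without Pax5 were both on P3. Spib levels were 10.25 and 10.50 on P0, 3.50 on P1, 10.50 on P2, and 10.96, 10.94 and 11.60 on P3. The P1 cell stood apart: it had 30 products and low levels of all 4 factors (Ebf1 8.93, FOX01 5.67, Pax5 5.51), where the other 6 had 43 to 48 products. Of the dendritic genes, Bst2 was in 5 of the 7, Cd68 in 5, Csf1r in 2, Itgax in 1 and Id2 in 1, against 83.2, 52.1, 22.1, 23.2 and 44.4% of the other cells.

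The pooled wells gave a second measure of the same factors. Wells of 20 cells had Ebf1 levels of 18.23, 19.18, 19.08 and 17.92 on P0 to P3 (18.60 ± 0.63), FOX01 levels of 17.67, 17.64, 17.43 and 16.51 (17.31 ± 0.55) and Pax5 levels of 13.56, 15.73, 15.86 and 15.49 (15.16 ± 1.1). Set against 20 times the average single cell of the same plate, they differed by -1.11 to 0.41 cycles for Ebf1, -0.78 to 0.13 for FOX01 and -2.29 to 0.42 for Pax5. The wells of 10 cells on P1 to P3 lay at 17.77 ± 1.6 for Ebf1, 16.20 ± 1.3 for FOX01 and 13.92 ± 2.9 for Pax5 (n = 3), and differed from 10 times the average single cell by -1.16 to 1.76, -1.18 to 1.39 and -3.64 to 2.46 cycles, a wider range than in the 20-cell wells for each of the 3. The 10-cell well of P0, with 29 products against 68 to 71, was at 3.82, 0.87 and 2.72. Spib had a product in 1 of 4 wells of 10 cells (P3) and 1 of 4 wells of 20 cells (P2), where its single-cell shares predicted 0.724 and 1.29 wells.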

How the data were processed

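Ct values are as the authors deposited them, without normalization; per the labels' protocols they come from CellsDirect reverse transcription and pre-amplification with 96 TaqMan assays, read on a BioMark HD. The software behind the Ct is not given in the sources used here. A Ct of 40 was taken as no product. Of 96 assay names, 49 matched a symbol and 33 a synonym of 1 gene in RefSeq (GRCm38.p6); FOX01 was among the 14 that matched none. The members and gene lists were chosen with earlier results of these data known.

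A single-cell well was kept with products for over 50% of 4 reference genes and if the number of its products reached 50% of the median of its plate. Co-detection took genes present in 5% to 95% of cells and absent from all but 3 or fewer of the 16 no-RT wells, with 0.5 added to each count of the table. Level differences took pairs with at least 4 cells on either side on every plate. Both were made within plates, which the labels' titles give and which cells with and without a gene share, and were fitted in R 4.3.3 (limma 3.58.1), the p-values being adjusted over all pairs by Benjamini-Hochberg and set against 0.05. The fits were also run on simulated plates, in which all genes outside the pairs made dependent were independent of each other. The panel is not like that, so the run does not vouch for the calls reported here. The SD is that of plates; limma draws the spread of each pair toward that of the others.

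Genes were named by rule: the 4 factors, the 3 partners with the highest odds ratio of each, the called pairs with the same sign on 4 plates (up to 5 highest and 5 lowest), and called members of the lists. Any further called partner of a factor was named because its calls were few, after its values were seen. Alternatives were other Ct limits, filters, added counts, stratified, centred, median, weighted and unblocked fits, and leaving out each plate. Some items of the panel are not reported here.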

Additional observations from a re-analysis of the deposited data

Results flagged for a closer look

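In 27 sets of 4 plate values for the factors, Dixon's criterion at 95% marked 3, and chance marks about 1 set in 20. The 10-cell well of P0 had a FOX01 level of 0.87, against 15.40 to 17.69 on the other plates; that well had 29 products in all, against 68 to 71, and its part in the FOX01 value was not tested beyond leaving it out. The 20-cell well of P0 had a Pax5 level of 13.56, against 15.49 to 15.86. The share of cells with Ebf1 and FOX01 but no Pax5 was 32.2% on P2, against 42.5 to 44.2% on the others; P2 also had the lowest shares of Ebf1 (65.5%) and FOX01 (78.2%).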

How the results depend on the processing

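Among the 684 alternative values computed, no result that could change direction did so. A further 10 could not be had: pairs of Cd34 with Pax5, of Itgb7 with a factor, and 3 level differences fell outside a stricter filter or lost P0. Shares of pairs called, detection shares and levels of pooled wells cannot be negative, so their direction was not tested. The pairs followed were mostly those already called in the same cells. The share of pairs called for co-detection was 4.59%, and 21.8% with all wells kept, 9.18% with 1 added and 7.99% with stratified cells. In Ebf1-positive cells it was 0.463%, and 3.42% with 1 added and 3.70% stratified. In Pax5-negative cells it was 0.255%, and 0.532% with a Ct below 25, 28.2% with all wells, 0% with at least 75% of the median products, 8.42% with 1 added and 7.57% stratified; there, Ebf1 with FOX01 passed with all wells (2.19), 1 added (1.67) and stratified cells (1.77). The share of level pairs called was 1.40%, and 0.896% with medians, 4.77% with at least 8 cells on either side, 4.71% with plates weighted and 0.672% with no replicate block. The Ebf1 level by FOX01 passed with plates weighted (1.74); the FOX01 level by Ebf1 passed with a Ct below 25 (1.24), 75% of the median (1.26), reference centring (1.51), 8 cells a side (1.24) and weighting (1.20). Calls ended for Ebf1 with Ly6d in Pax5-negative cells at 75% of the median (2.93), for the Cd34 level by Ebf1 (-1.35) and the Ly6d level by Pax5 (0.99) with medians, and for the Pax5 level by Bst1 with a Ct below 40 (1.63). The order of detection had 5 of 6 pairs called, and 0 with the plate as a replicate block; FOX01 against Ebf1 passed with 75% of the median products (8.79 points, exact permutation, adjusted p = 0.0286). The cause of these changes was not tested, except that the block allows no exact p under 0.125.

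Leaving out each plate gave shares called of 0.327 to 2.78% in all cells, 0 to 1.77% in Ebf1-positive cells, 0 to 1.60% in Pax5-negative cells and 0 to 0.698% of level pairs, and 0 to 0 order pairs. Ebf1 with FOX01 then ran from 2.21 to 2.70, FOX01 with Pax5 in Ebf1-positive cells from 2.93 to 3.36, the Ebf1 level by Pax5 from 2.26 to 2.62 and the FOX01 level by Pax5 from 1.62 to 1.81.

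Detection shares of the 4 factors moved by less than 1 SD of plates in every alternative run. Leaving out the 10-cell well of P0, an alternative added once values had been seen, took the 10-cell means from 14.29 to 17.77 for Ebf1, 12.37 to 16.20 for FOX01 and 11.12 to 13.92 for Pax5. A Spib share of 2.02% rests on 7 cells and lies under the 20.6% that 16 no-RT wells can exclude.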
